A study of Mus musculus with 2 samples.

Results

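Keratins are the intermediate filament proteins of epithelial cells. Each filament pairs a type I with a type II keratin, and in the mouse the type I genes are clustered on chromosome 11 and the type II genes on chromosome 15, where Krt18 lies as an exception among them. Simple epithelia, such as the linings of gut and ducts, use Krt8 and Krt7 (type II) with Krt18, Krt19 and Krt20 (type I). Of these, Krt7 is better known from ducts. The basal cells of stratified epithelia such as skin use the type II gene Krt5 with the type I gene Krt14. In the intestine Krt8 and Krt18 make up the common filament, Krt19 is also found in progenitor cells, and Krt20 marks cells that have differentiated. Open chromatin was examined at these 7 genes, 5 of simple and 2 of stratified epithelium, chosen by name out of 22380 protein-coding genes. Peaks within 1 kb of any annotated start site of a gene were called promoter peaks, and other peaks in the gene body or up to 20 kb on either side were called distal. By this rule the 7 genes had 39 of the 90445 control peaks and 33 of the 71282 Taf4-inactivated peaks.

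Chromatin was profiled by ATAC-seq, which reads out where a transposase can insert into DNA, in enteroids, epithelial cultures that were started from crypts of the ileum of mice aged 4 months, of C57Bl6/129sv background. Both cultures carried floxed Taf4 (Taf4 lox/lox), which encodes a TFIID subunit (TFIID is the factor that binds core promoters), and both were given 1 µM 4-hydroxytamoxifen for 3 days. The Taf4-inactivated culture also carried VilCreERT2, a tamoxifen-dependent Cre driven by the villin promoter, which is active in intestinal epithelium, while the control culture, labelled WT, had no Cre. A single library stands for each genotype, so all differences below describe these 2 libraries and none was tested. Since the enteroids were profiled in bulk, fewer cells with an open site and less opening per cell cannot be told apart. Fold enrichment is relative to the background of the same library, and it was therefore compared as a percentile within each list, where 100 is the highest peak. Depth was estimated from the background level under peaks, which was higher in control by a ratio of 1.65. Read numbers were not used, so depth itself was not measured. All coordinates are on mm9.

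The labelled tissue was checked at its markers. All 4 epithelial markers (Vil1, Cdh1, Epcam and Cdx2) had promoter peaks in both lists, at percentiles 87.6 to 94.0 in control and 68.8 to 95.0 in Taf4-inactivated enteroids. Of 8 markers of fibroblasts, leukocytes and endothelium, 5 had a promoter peak in control, at percentiles 10.7 to 74.3, and 3 (Col1a1, Col1a2 and Pdgfra) in Taf4-inactivated enteroids, at 18.1 to 33.3. The shares of all coding genes with a promoter peak were 68.4% in control and 65.5% in Taf4-inactivated enteroids. Ptprc, Cd3e and Cdh5 had none in either list, and what other cells add to the keratin peaks was not tested.

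The sequences that carry the main contrasts are given in mm9, 5′ to 3′ on the strand named. They are the 250 bases before the start sites of Krt8, Krt18 and Krt20, and stretches of at most 300 bases of 3 distal peaks, namely that of highest fold in control (between Krt8 and Krt18), that of highest fold after Taf4 inactivation (downstream of Krt20) and the unmatched one of highest fold (in the Krt20 intron). Capitals mark matches, on either strand, to 7 short motifs. The TATA box was searched for as TATAAA, which 12.3% of the promoters of 22375 coding genes held in the same window. The GC box was searched for as GGGCGG, held by 40.1% of these promoters. For AP-1, the dimer of Fos and Jun proteins, the letters were TGANTCA, held by 5.88%. For the intestinal CDX factors they were TTTATNG, held by 9.43%. For HNF4, a nuclear receptor of gut and liver, they were CAAAGTCCA, held by 0.398%. For the GATA factors they were AGATAA, held by 9.31%. For the KLF factors they were GGGTGTGG, held by 3.20%.
Krt8 promoter (chr15:101834774-101835023, minus strand): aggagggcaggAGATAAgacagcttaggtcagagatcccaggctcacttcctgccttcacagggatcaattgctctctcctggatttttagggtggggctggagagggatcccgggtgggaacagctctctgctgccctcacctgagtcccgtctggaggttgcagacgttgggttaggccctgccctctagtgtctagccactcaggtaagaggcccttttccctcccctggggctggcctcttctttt
Krt18 promoter (chr15:101858397-101858646, plus strand): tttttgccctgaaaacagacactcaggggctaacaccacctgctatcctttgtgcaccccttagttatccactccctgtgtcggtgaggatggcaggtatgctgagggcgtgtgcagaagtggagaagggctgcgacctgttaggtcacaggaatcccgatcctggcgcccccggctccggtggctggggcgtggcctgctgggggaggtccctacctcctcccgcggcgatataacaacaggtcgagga
Krt20 promoter (chr11:99299465-99299714, minus strand): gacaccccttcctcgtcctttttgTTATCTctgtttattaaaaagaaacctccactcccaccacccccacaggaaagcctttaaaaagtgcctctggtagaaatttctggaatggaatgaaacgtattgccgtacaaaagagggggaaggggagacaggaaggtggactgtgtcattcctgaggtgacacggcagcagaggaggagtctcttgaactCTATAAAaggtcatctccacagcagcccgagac
Krt8 to Krt18 intergenic peak (chr15:101847511-101847810, plus strand): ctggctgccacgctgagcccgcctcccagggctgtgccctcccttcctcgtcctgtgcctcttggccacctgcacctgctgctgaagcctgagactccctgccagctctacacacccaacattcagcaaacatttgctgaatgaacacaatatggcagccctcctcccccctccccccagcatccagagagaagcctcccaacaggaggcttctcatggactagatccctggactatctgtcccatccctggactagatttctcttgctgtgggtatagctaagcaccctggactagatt
Krt20 downstream peak (chr11:99276114-99276406, plus strand): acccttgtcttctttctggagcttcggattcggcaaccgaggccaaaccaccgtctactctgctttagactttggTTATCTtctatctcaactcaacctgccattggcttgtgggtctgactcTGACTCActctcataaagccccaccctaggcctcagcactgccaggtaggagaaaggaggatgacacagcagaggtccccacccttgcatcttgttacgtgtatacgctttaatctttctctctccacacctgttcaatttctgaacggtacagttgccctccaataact
Krt20 intron peak (chr11:99297823-99298122, plus strand): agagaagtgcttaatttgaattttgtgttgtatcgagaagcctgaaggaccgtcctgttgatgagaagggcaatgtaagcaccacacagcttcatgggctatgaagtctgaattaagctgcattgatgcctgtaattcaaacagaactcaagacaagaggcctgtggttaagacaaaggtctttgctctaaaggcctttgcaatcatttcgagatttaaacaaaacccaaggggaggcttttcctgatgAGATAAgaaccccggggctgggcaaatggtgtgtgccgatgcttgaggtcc

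The TATA box of Krt20 lies close to its start site and overlaps a CDX match. Krt8 and Krt20 each had a GATA match. The Krt19 promoter held a GC box, and the Krt14 promoter held a GC box and an AP-1 match. The promoters of Krt7, Krt18 and Krt5 held none of the 7 motifs. For Krt7 the 250 bases searched lay outside the promoter peaks of both lists. Krt18 was the richest of the 7 in CpG, with 12 CpG and a GC content of 60.4%, against 5 CpG and 48.4% for Krt20 (the median of all promoters was 54.4%). In the distal stretches, the Krt20 downstream peak held AP-1 and GATA matches and the Krt20 intron peak a GATA match. Of the middle 300 bases of all distal Taf4-inactivated peaks, 14.0% held the AP-1 and 14.9% the GATA letters, against 10.4% and 11.4% of control peaks. All 7 motifs were more frequent in the Taf4-inactivated list, among them HNF4 at 1.71% against 0.836%. These shares are over whole lists, of 55341 Taf4-inactivated and 72883 control peaks, whose estimated depth differed. What list length and depth add to them was not tested. At differentially accessible sites the authors reported HNF4 and AP-1 sites as enriched in control, and GATA sites in Taf4-inactivated enteroids. The stretch shown of the intergenic peak between Krt8 and Krt18 held none of the motifs, and the rest of that peak was not searched. These matches describe the letters only.

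Of the 7 genes, 4 had a promoter peak in control enteroids (Krt7, Krt8, Krt18 and Krt19) and 5 in Taf4-inactivated enteroids, where Krt20 was added. Over all coding genes, 68.4% had a promoter peak in control and 65.5% in Taf4-inactivated enteroids. Krt5 and Krt14 had none in either library, as was the case for 28.7% of coding genes. A promoter peak was found in the Taf4-inactivated list only for 2.90% of coding genes and in the control list only for 5.70%. In the opposite direction, 0 of the 7 genes had a promoter peak in control alone. Krt20 had no control peak within 5 kb of its start site either. With 5 kb, peaks further from the start gave Krt5 and Krt14 a peak in both lists. At a −log10 q of at least 5, Krt8 was left in control, and Krt8 and Krt19 were left after Taf4 inactivation. The shares of coding genes with 5 kb or at that threshold are not given.

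**Figure D1:**
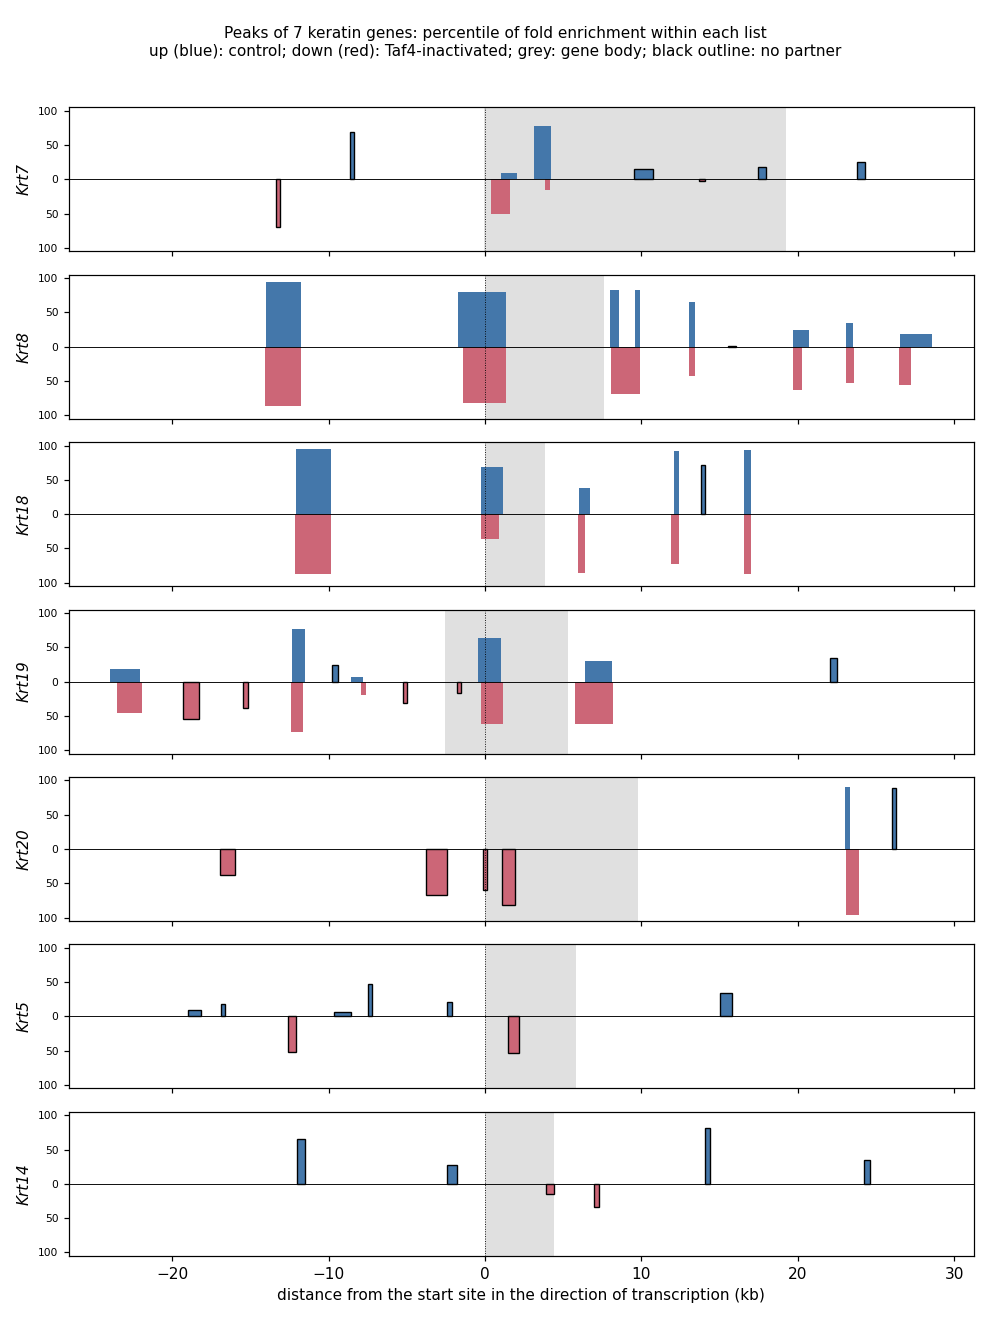
Peaks of the 7 keratin genes by distance from the start site of each gene (kb, in the direction of transcription), with bar height giving the percentile of fold enrichment within the list, control upward in blue and Taf4-inactivated downward in red. Grey marks the gene body and a black outline a peak without partner in the other list; Krt20 has outlined red bars at and around its start site and no control bar there.

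Krt20, which encodes the type I keratin of differentiated intestinal cells, was the gene of the 7 with a promoter peak in 1 list only. It (ENSMUSG00000035775.2, chr11:99289717-99299464, minus strand) had no control peak from its body to 20 kb upstream. In Taf4-inactivated enteroids a promoter peak (chr11:99299361-99299615) covered the start site and reached the first coding exon, with a fold enrichment of 2.59 at percentile 59.8 and a −log10 q of 3.35. A stronger peak (chr11:99297567-99298379) lay in an intron, with a fold of 3.19 at percentile 81.2, just outside the promoter limit at 1085 bp from the start. Upstream, a peak 2440 bp away (chr11:99301904-99303224) was at percentile 66.4 and another 15968 bp away (chr11:99315432-99316373) at 38.5. All 4 of these peaks were without a partner in the control library, whose estimated depth was greater.

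On the downstream side of Krt20 both libraries had a peak beyond the 3′ end of the gene, 23035 bp from the start site in control. It spanned chr11:99276114-99276429 in control, with a fold of 2.59 at percentile 90.3, and chr11:99275578-99276406 in Taf4-inactivated enteroids, with a fold of 4.38 at percentile 96.6. This was the highest fold of any distal peak of the 7 genes in that list. A neighbouring control peak (chr11:99273211-99273418, percentile 89.0) had no Taf4-inactivated partner, and its predicted −log10 p at the lower depth was 4.34, above the weakest peak there, 2.87. The Krt20 neighbourhood thus held unmatched peaks on both sides of the comparison, with 4 from the Taf4-inactivated library between the intron and 15968 bp upstream, and 1 from control beyond the 3′ end.

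Krt8 and Krt18, which encode the partners of the main simple epithelial filament, lie 23873 bp apart on chromosome 15 and point away from a shared intergenic stretch. The Krt8 promoter peak (gene ENSMUSG00000049382.9, minus strand) spanned chr15:101833415-101836477 in control, with a fold of 2.30 at percentile 80.3. In Taf4-inactivated enteroids it spanned chr15:101833424-101836208, with a fold of 3.20 at percentile 81.3. The ranks differed by 1.01 points, and the Taf4-inactivated peak lay entirely within the control one. The Krt18 promoter peak (gene ENSMUSG00000023043.6, plus strand) spanned chr15:101858407-101859771 in control, at percentile 68.7, and chr15:101858377-101859538 after Taf4 inactivation, at percentile 36.4, with folds of 2.16 and 2.30. Its rank was 32.3 points lower in the Taf4-inactivated list, although the peaks shared 1132 bp.

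Krt19, the type I keratin without a tail domain, held its rank. Its promoter peak was at percentile 64.2 in control (chr11:100006394-100007878, fold 2.12) and at 62.0 in Taf4-inactivated enteroids (chr11:100006254-100007693, fold 2.63), a difference of −2.16 points. The Taf4-inactivated list had a further Krt19 peak (chr11:100008937-100009205) in an intron of a longer non-coding transcript, 774 bp from the start of that transcript, at percentile 16.0 and without control partner. Krt7, a type II keratin better known from ducts than from gut lining, had the weakest control promoter peak of the 4, at percentile 9.31 (chr15:101242578-101243576, fold 1.81). Its centre lay 1543 bp downstream of the most upstream coding start site, and it covered another annotated start site of the gene. After Taf4 inactivation the peak was at percentile 50.9 (chr15:101241931-101243154, fold 2.46), 41.6 points higher, and the pair shared 577 bp, 47.1% of the Taf4-inactivated peak.

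Among coding genes with a promoter peak in both lists, 7.84% ranked higher after Taf4 inactivation by 20 points or more and 12.3% ranked lower by as much. Of the 4 keratin pairs, 1 (Krt7) was higher and 1 (Krt18) lower by this measure. The median difference, inactivated minus control, was −0.577 points for the 4 keratin genes and −2.77 points for 14022 coding genes (quartiles −10.6 and 2.35). The call for Krt7 depended on the window, since with 5 kb a stronger control peak at chr15:101244684-101245746 (percentile 77.2, against 15.2 for the Taf4-inactivated peak it overlaps) came in and the difference turned to −26.3 points. Ranked by −log10 p, Krt7 differed by 18.3 points and Krt18 by −31.7 points. Ranked among coding promoters only, neither gene reached 20 points, and Krt18 was at −17.4.

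**Figure D2:**
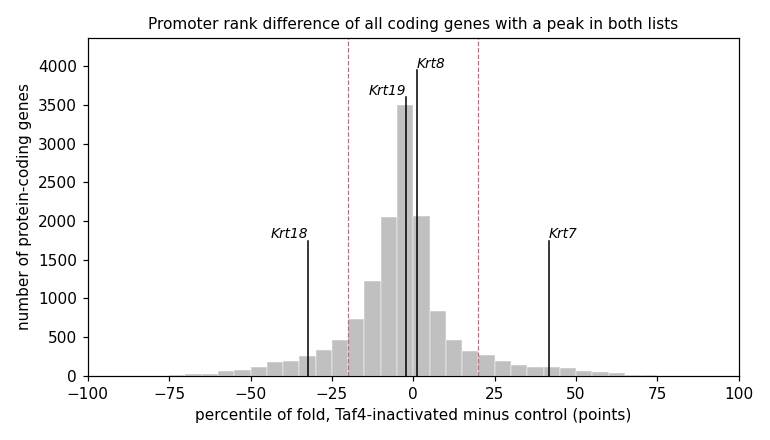
Histogram of the promoter rank difference (percentile of fold in the Taf4-inactivated minus the control list, in points, bins of 5) over 14022 protein-coding genes, with lines at the 4 keratin genes that have a promoter peak in both lists and dashed lines at 20 points either way. Krt8 and Krt19 sit near the centre, Krt18 at −32.3 and Krt7 at 41.6.

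Counted once over all windows, the 7 genes had 35 distal peaks in control and 27 in Taf4-inactivated enteroids. Over all peaks beyond 1 kb of coding start sites the counts were 72884 and 55345. For the 7 genes the order turned at a −log10 q of at least 2, with 20 control and 24 Taf4-inactivated peaks. It also turned at a −log10 q of at least 5, with 6 and 12, and with 5 kb flanks, with 10 and 11. Counts over all peaks are not given for these settings, so the turn has no background beside it. Of the 35 control peaks 19 (54.3%, exact 95% CI 36.6 to 71.2) had no partner in the other list, and of the 27 Taf4-inactivated peaks 12 (44.4%, CI 25.5 to 64.7). Over all peaks beyond 1 kb of coding start sites these shares were 61.0% and 48.3%, so both intervals held the background. The intervals cover counting error only.

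Matched distal peaks, those with a partner, were then counted apart for the simple and the stratified genes. Around the 5 simple genes, 16 of 25 control peaks and 15 of 23 Taf4-inactivated peaks had a partner. Around Krt5 and Krt14, 0 of 10 control and 0 of 4 Taf4-inactivated peaks had one. Unmatched peaks thus made up 36.0% (CI 18.0 to 57.5) against 100% (CI 69.2 to 100) of control peaks, and 34.8% (CI 16.4 to 57.3) against 100% (CI 39.8 to 100) of Taf4-inactivated peaks. Over all peaks beyond 1 kb of coding start sites the unmatched shares were 61.0% in control and 48.3% in Taf4-inactivated enteroids. Peaks of a window share their library and neighbourhood, so no test was made. No peak around Krt5 and Krt14 had a −log10 q above 3.18, and the part of peak strength in this contrast was not tested. Of the 19 unmatched control peaks, 6 (3 of 9 around the simple genes and 3 of 10 around Krt5 and Krt14) were predicted to be called at the depth of the Taf4-inactivated library, that is, to pass its weakest −log10 p. The prediction assumes equal enrichment in both libraries. It is not given for the unmatched Taf4-inactivated peaks, which pass at the greater estimated depth of control by construction.

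Around Krt8 and Krt18 nearly all distal peaks were matched. The 2233 bp control peak between them (chr15:101846545-101848777) had the highest fold of all distal control peaks of the 7 genes, 2.87 at percentile 94.8, and its Taf4-inactivated counterpart (chr15:101846511-101848835) had a fold of 3.46 at percentile 86.5. It is 9870 bp from the start of Krt18 and 11772 bp from that of Krt8. Beyond the 3′ end of Krt8 all 5 Taf4-inactivated peaks had a control partner, and 1 of 7 control peaks there, the weakest, had none. Downstream of Krt18 the 3 Taf4-inactivated peaks were also all matched. The strongest pair there lay 16571 bp from the start (chr15:101875218-101875649 in control, chr15:101875226-101875646 after inactivation), at percentiles 93.0 and 87.1. A pair 12063 bp from the start (chr15:101870710-101871024 in control) was at 92.3 in control and 73.0 after Taf4 inactivation. The pair nearest to the gene, 5987 bp from the start, went the other way, from percentile 37.6 to 85.4. An unmatched control peak downstream of Krt18 (chr15:101872452-101872715) was at percentile 72.3.

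Among the 15 matched Taf4-inactivated distal peaks, 5 ranked at least 20 points higher than their control partner and 2 at least 20 points lower. For all 28640 matched distal peaks the shares were 15.5% higher and 24.7% lower. The median difference was 6.31 points for the keratin peaks and −3.20 points for all. The 5 that ranked higher were 2 on the downstream side of Krt8 (percentile 24.1 in control against 63.7, and 18.2 against 55.7), the pair 5987 bp from the Krt18 start, and 2 by Krt19. These last lay downstream of Krt19, at percentile 29.9 in control and 62.2 after inactivation (chr11:99999308-100001065 in control), and 19516 bp upstream, at 18.7 and 45.6. The 2 that ranked lower were the pair inside Krt7 named above and a pair 13020 bp from the Krt8 start, at 65.8 and 42.3.

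Around Krt19 the Taf4-inactivated list had more distal peaks than control, 7 against 6, and 4 of them were matched. Its 3 unmatched ones, all upstream of the gene, were at percentiles 31.0 to 55.1. For Krt7 the lists had 3 and 5 distal peaks with 1 match. The upstream Krt7 peaks were unmatched on both sides, with a control peak at percentile 69.2 (chr15:101232940-101233139) and a Taf4-inactivated peak at percentile 69.3 (chr15:101228196-101228427) that do not overlap.

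Krt5 and Krt14, the basal cell pair, had weak and scattered peaks. Around Krt5 (ENSMUSG00000061527.5) the 6 control peaks were at percentiles 6.26 to 47.3 and all intergenic. The 2 Taf4-inactivated peaks were at 51.4 and 52.7, and the higher of them (chr15:101541123-101541875) overlapped a coding exon 1447 bp from the start. Around Krt14 (ENSMUSG00000045545.8) the 4 control peaks were at percentiles 27.2 to 80.6, the highest of them being the promoter peak of Krt9 (chr11:100054498-100054793), a keratin of palm and sole skin. The 2 Taf4-inactivated peaks were at 14.8 and 33.1, and the lower overlapped a coding exon at the 3′ end of Krt14. None of these 14 peaks had a −log10 q above 3.18.

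**Figure D3:**
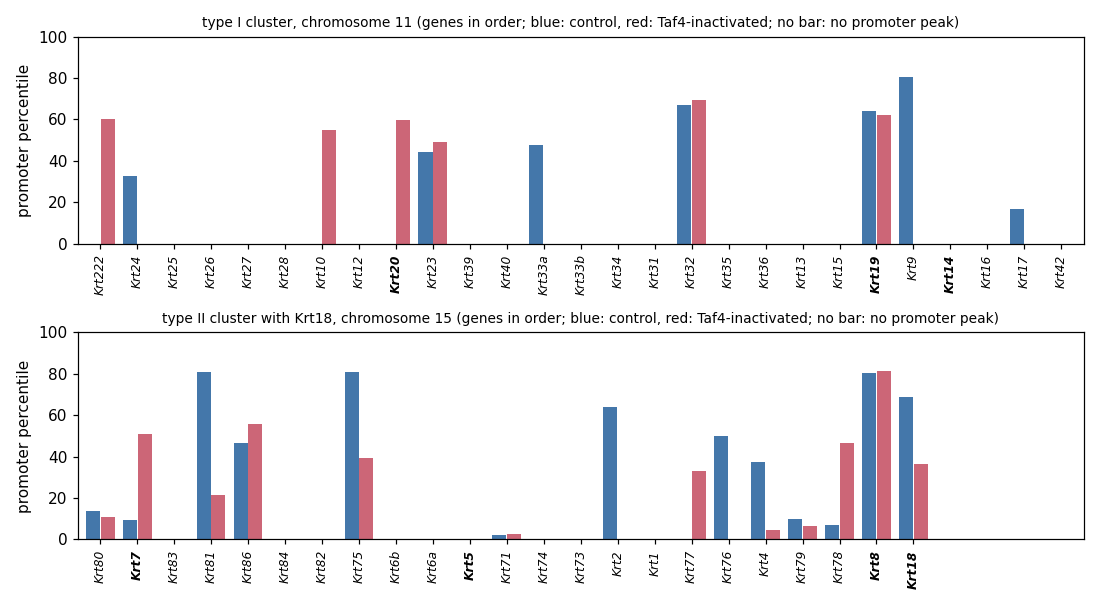
Percentile of the highest promoter peak for all 50 keratin genes in their order along the clusters of chromosome 11 (top) and chromosome 15 (bottom), control in blue and Taf4-inactivated in red, with the 7 genes in bold and no bar where a gene has no promoter peak. Krt8, Krt18 and Krt19 have bars in both colours, Krt20 in red only, and Krt5 and Krt14 none.

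Of the 43 other keratin genes of the annotation, which include the hair and skin keratins, 16 had a promoter peak in control and 13 in Taf4-inactivated enteroids, 10 of them in both. These shares, 37.2% and 30.2%, were below the 68.4% and 65.5% of coding genes. In control the highest were Krt75 (percentile 80.8), Krt81 (80.8), Krt9 (80.6), Krt32 (67.1) and Krt2 (64.0). In Taf4-inactivated enteroids they were Krt32 (69.4), Krt222 (60.1), Krt86 (55.6), Krt10 (54.7) and Krt23 (49.0). Of the 10 pairs, Krt78 ranked 39.5 points higher after inactivation, and Krt81 (−59.5 points), Krt75 (−41.4) and Krt4 (−33.0) ranked lower. Among coding genes with both peaks, 7.84% ranked higher and 12.3% lower by at least 20 points. The control and Taf4-inactivated peaks of Krt78 did not overlap, so its difference compares neighbouring sites. A promoter peak was seen in the Taf4-inactivated list only for 3 of the 43 (Krt222, Krt10 and Krt77), against 2.90% of coding genes. In the control list only it was seen for 6 of the 43, led by Krt9, Krt2, Krt76, Krt33a and Krt24, against 5.70% of coding genes. At a −log10 q of at least 5 none of the 43 had a promoter peak in either list, against 1 and 2 of the 7. The share of coding genes at that threshold is not given, so these counts have no background beside them.

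Keratin filaments are anchored by desmosomes and plakin cytolinkers, and the genes of these partners were examined in the same way. All 12 partner genes found in the annotation had a promoter peak in both lists, as did 14022 of 22380 coding genes. Their median percentile was 91.8 in control and 80.4 in Taf4-inactivated enteroids, against 86.5 and 81.5 for coding genes. Ranks were at least 20 points higher after inactivation for Ppl (28.1 points, encoding periplakin) and Plec (24.6, plectin), and lower for Dsp (−30.3, desmoplakin). These were 2 genes higher and 1 lower of 12, against 7.84% and 12.3% of coding genes. The median difference over the 12 was −6.89 points, against −2.77 points for coding genes. Ranked by −log10 p these 3 differences were 8.74, −2.10 and −17.6 points. Among the other keratin and partner genes with both peaks, 22 in all, the promoter nearest to that of Krt8 in both percentiles was Jup, at a distance of 5.48 points, that nearest to Krt19 was Pkp3 (4.75), to Krt7 Krt78 (5.03) and to Krt18 Krt75 (12.5). The likeness rests on 2 libraries, and for Krt78 on peaks of the 2 lists that do not overlap.

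**Figure D4:**
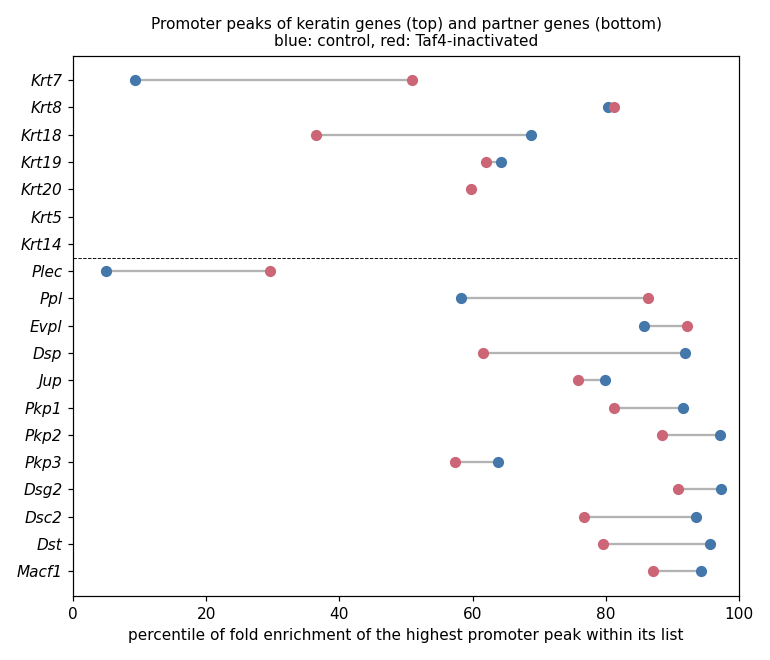
Percentile of fold enrichment of the highest promoter peak within its list, for the 7 keratin genes (above the dashed line) and 12 partner genes (below), control in blue and Taf4-inactivated in red, joined where both exist. Krt8 and Krt19 have nearly coinciding points, Krt7 and Krt18 are spread in opposite directions, and 9 of the 12 partner genes have the control point at the higher rank.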

How the data were processed

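Peak lists of 1 control and 1 Taf4-inactivated ATAC-seq library were used, grouped by the genotype label. The authors mapped reads to mm9 with Bowtie 1.0.0, retaining unique alignments, and called broad peaks per library with MACS2 2.1.1 (versions from the submitters' processing notes). Unique mapping can lower the signal at near-identical keratin copies. The handling of duplicate reads is not given in the sources used here. Each deposited peak has a fold enrichment over the background of its own library, a −log10 p, a −log10 q, and a score, which is 10 times the −log10 q as a whole number. Read numbers were not used here.

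Start sites came from GENCODE vM1 on the same build. For each gene the promoter peak with the highest fold was ranked among all peaks of its list. The peaks so chosen in the 2 lists need not overlap. Among the other keratin and partner genes they did not for Krt32, Krt71, Krt78 and Dst. A partner was any peak of the other list sharing at least 1 bp. Background reads under a peak were solved from its fold and Poisson p, and their 5th percentile over the narrowest 10% of peaks, 12.1 in control and 7.36 in Taf4-inactivated enteroids, gave the depth ratio used for predicted p values. Of the 7128 Taf4-inactivated peaks used for this, 563 could not be solved. The overlap, promoter, percentile and depth-ratio functions were run in 8 steps on simulated data. Of these, 0 were off by more than 2% (2 percentage points for shares). The depth steps simulated p with the formula that the solver inverts, so they check the code only. The predicted p values were not tested in this way. Intervals are Clopper-Pearson. Python 3.11.15, numpy 2.4.6, pandas 2.3.3, scipy 1.17.1 and matplotlib 3.10.9 were used.

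Text names all 7 genes, the 3 distal peaks with the highest fold per list and the 3 highest without partner, the 5 other keratin genes of highest percentile per list and those called by rank or present in 1 list (at most 5 each), the 3 partner genes with the largest rank difference, and the gene nearest in rank to each keratin pair. Members and lists were chosen with earlier results of these data known. The motifs were chosen by factor name, for the intestine and for core promoters, after the peaks had been ranked. Of 13 partner genes listed (Plec, Eppk1, Ppl, Evpl, Dsp, Jup, Pkp1, Pkp2, Pkp3, Dsg2, Dsc2, Dst and Macf1), Eppk1 had no match in the annotation. Alternatives varied the start site distance, transcripts, flank, q threshold, list length, ranking and overlap.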

Additional observations from a re-analysis of the deposited data

How the results depend on the processing

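No paired analysis was possible because each genotype had a single library, which also meant that none could be omitted in turn. Of 88 alternative counts and shares, 56 stayed within 1.5 times the count given or within the interval of the share, and 32 moved further. Of 31 alternative rank differences of single genes, 25 kept their call, 5 lost it and 1 changed direction. With 5 kb the 7 genes also had 6 and 7 promoter peaks, Krt5 and Krt14 included. The causes were not tested, except that a filter keeps fewer peaks by construction.

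With 5 kb from a start site, 31 (control) and 23 (Taf4-inactivated) other keratin genes had a promoter peak, 2 keratin pairs ranked lower, and Krt7 turned to −26.3 points. At a −log10 q of at least 2, other keratin genes numbered 9 and 8, and distal peaks 20 and 24, with 30.0% and 45.8% without a partner. At 5 or more, promoter peaks were left at 1 and 2 of the 7 genes and 0 and 0 other keratin genes, and distal peaks numbered 6 and 12, with 33.3% and 75.0% without a partner. Among the top 20000 peaks by fold, the counts were 1 and 1 of the 7, 3 and 0 other keratin genes, and 8 and 7 distal peaks. No keratin pair ranked higher (0) by −log10 p, by width, with 50% overlap or among coding promoters, and none (0) ranked lower by width or among coding promoters. Flanks of 5 kb gave 10 and 11 distal peaks and flanks of 50 kb gave 65 and 58. With partners defined by 50% overlap, 71.4% of control distal peaks had none. Counts and shares over all coding genes and all peaks are not given for these settings, so those here have no background beside them.

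The control list shortened to the length of the other was added after seeing the data and moved none of the results run with it. Estimated depth differed between the libraries, and its part in the missing partners was not tested.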
